A study of Mus musculus with 12 samples.

Results

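The genes described here are 35 genes of the lysosome, the acidic compartment in which cells break down proteins, lipids and glycans. They were chosen by symbol from the 25232 genes measured in mouse epididymal white adipose tissue (eWAT, the fat pad attached to the epididymis). The choice was made with earlier results of these data known. By role the 35 genes fall into 10 genes of cathepsins and legumain, 11 hydrolases and their activators, 6 membrane proteins, 5 proton pump subunits and 3 transcription factors of the MiT/TFE family. All 35 were present in the table, and all 35 passed the filter on low values, with a lowest level of 6.63 CPM (reads scaled to a common library total) in any library.

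Lysosomal proteases and glycosidases work at low pH, which the vacuolar proton pump maintains by moving protons across the lysosomal membrane at the cost of ATP. Transcription factors of the MiT/TFE family bind E-box motifs in the promoters of many lysosomal genes and raise their transcription when nutrients are scarce or lysosomes are under stress. In obese fat pads, macrophages gather around dying adipocytes and take up their lipid, and such macrophages are known to be rich in lysosomes.

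Whole fat pads of C57BL/6 mice were sequenced in 4 groups of 3 biological replicates each, per the labels. HFD_TKO mice carried the genotype labelled TET KO and were fed a high-fat diet, and HFD_WT mice were wild type on the same diet. ND_TKO mice were TET KO on a normal diet, and ND_WT mice were wild type on the normal diet. TET enzymes oxidise 5-methylcytosine in DNA, and the series title describes their ablation in adipocytes. The sources used here do not give the alleles, the promoter that drives the deletion, the age of the mice or the time on diet.

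Recovered library totals lay between 20973140 and 25606629 reads. Adipoq, the adipocyte hormone adiponectin, was abundant in every library, at 1349 to 6448 CPM. Tet1, Tet2 and Tet3 were not called lower in TKO on either diet, and Tet1 was called higher on HFD (log2 change 0.76, adjusted p = 0.01) and on ND (0.97, adjusted p = 0.019). Reads over a whole gene also come from other cells and from exons left after a deletion, so these values do not check the genotype labels. Along the second principal component HFD_TKO replicate 1 (44.2, against 18.5 and 26.2) and ND_WT replicate 3 (-6.21, against -32.0 and -32.6) lay apart from their groups, so counts are also given without both. Changes are log2 differences of log2(CPM + 1) with their standard error (SE), means are given ± SD of n = 3 libraries, and adjusted p-values are those of limma over all 15597 tested genes, called at 0.05.

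Promoter windows of 300 bases were available for 30 of the 35 genes (RefSeq, build GRCm38.p6, from 250 bases before the start site to 50 after it). The E-box core CACGTG, which reads the same on both strands, was present in a window of 9 of the 30 genes (30%), compared with 11.2% of the 12066 tested genes with a window. The longer form TCACGTG, searched on both strands and always containing the core, was present in 8 of the 30 (26.7%, compared with 6.52%). With both flanks, TCACGTGA, it was present in 5 (16.7%, compared with 2.01%). The related TCATGTG, which shares no core with these, was found in 6 of the 30 (20%, compared with 2.78%), among them Ctss and Gla. Windows of 4 genes are shown to set this motif beside the responses described further on. Gla and Ctss fell strongly in TKO on HFD, Lamp1 fell by less, and Mcoln1 was not called. Capitals mark the core together with a T directly before it or an A directly after it, where present.
Gla: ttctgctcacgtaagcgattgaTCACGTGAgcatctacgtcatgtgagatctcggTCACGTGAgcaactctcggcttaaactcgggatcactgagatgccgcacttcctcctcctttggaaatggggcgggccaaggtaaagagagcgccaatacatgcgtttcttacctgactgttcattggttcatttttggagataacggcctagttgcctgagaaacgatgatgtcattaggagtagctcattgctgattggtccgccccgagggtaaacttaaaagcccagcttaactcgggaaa
Ctss: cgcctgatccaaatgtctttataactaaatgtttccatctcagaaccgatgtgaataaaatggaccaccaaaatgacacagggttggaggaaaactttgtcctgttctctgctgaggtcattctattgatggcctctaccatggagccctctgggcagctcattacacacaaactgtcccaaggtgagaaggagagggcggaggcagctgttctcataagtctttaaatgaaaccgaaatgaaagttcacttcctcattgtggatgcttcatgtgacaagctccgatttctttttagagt
Lamp1: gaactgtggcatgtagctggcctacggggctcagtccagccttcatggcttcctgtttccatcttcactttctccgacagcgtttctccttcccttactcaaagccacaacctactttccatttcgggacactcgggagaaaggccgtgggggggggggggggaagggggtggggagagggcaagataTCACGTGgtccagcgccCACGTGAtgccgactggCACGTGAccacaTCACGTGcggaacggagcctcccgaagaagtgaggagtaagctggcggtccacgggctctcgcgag
Mcoln1: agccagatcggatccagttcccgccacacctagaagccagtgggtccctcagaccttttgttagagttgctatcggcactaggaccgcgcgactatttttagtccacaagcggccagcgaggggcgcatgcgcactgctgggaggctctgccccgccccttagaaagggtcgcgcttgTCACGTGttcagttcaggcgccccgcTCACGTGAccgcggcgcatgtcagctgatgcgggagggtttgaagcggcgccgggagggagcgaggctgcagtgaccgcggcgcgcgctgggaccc
The Gla window lies at chrX:134600956-134601255 on the minus strand, the Ctss window at chr3:95526536-95526835, the Lamp1 window at chr8:13158911-13159210 and the Mcoln1 window at chr8:3500269-3500568, the last 3 on the plus strand. The Lamp1 window holds 4 cores within the bases just before the start site, the first 2 beginning at -61 and -45. The cores of the Mcoln1 window begin at -71 and -45 and those of the Gla window at -227 and -194, each counted from the start site to the first base of the core, and the Ctss window holds none. Among the 9 genes with a core the median change of TKO against WT on HFD was -0.92, and among the 21 without one it was -1.08. A match of letters is a description of the window and says nothing of binding.

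On HFD, 33 of the 35 lysosome genes fell in TKO mice and none rose. Ctsk, the macrophage antigen gene Cd68 and Ctss fell most, while most membrane proteins, pump subunits and MiT/TFE factors fell by less. The median log2 change of the 35 was -1.11, with a range from -2.80 (Ctsk) to -0.09 (Mcoln1), compared with a median of -0.10 over all tested genes. Over all tested genes 31.6% were called lower and 15.2% higher in this comparison. A fall of at least 2-fold was called for 19 of the 35, compared with 10.1% of all tested genes. Together the 35 genes took between 1.22% and 1.41% of reads in HFD_TKO libraries, compared with 2.79% to 3.05% in HFD_WT, 1.03% to 1.26% in ND_TKO and 0.909% to 1.15% in ND_WT. In whole tissue, fewer cells of a type and less RNA per cell cannot be told apart.

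All values of 34 of the 35 genes were lower in the HFD_TKO libraries than in every HFD_WT library, and only Mcoln1 overlapped. Over all tested genes 38.6% were lower in this way. The genes not called were Mcoln1 and Atp6v1h. No gene of the 35 rose at an unadjusted p under 0.05, and edgeR and DESeq2 on recovered reads each called 33 lower and 0 higher. Limma gave 8335 of the 15597 tested genes at that unadjusted p, in either direction. Without HFD_TKO replicate 1 and ND_WT replicate 3 the count was 34. With trimmed mean (TMM) scaling in place of CPM the median of all genes was -0.01 and that of the 35 was -1.0, with 33 called lower. The 2365 higher and 4923 lower genes of the whole table became 3315 and 3996 with that scaling.

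**Figure D1:**
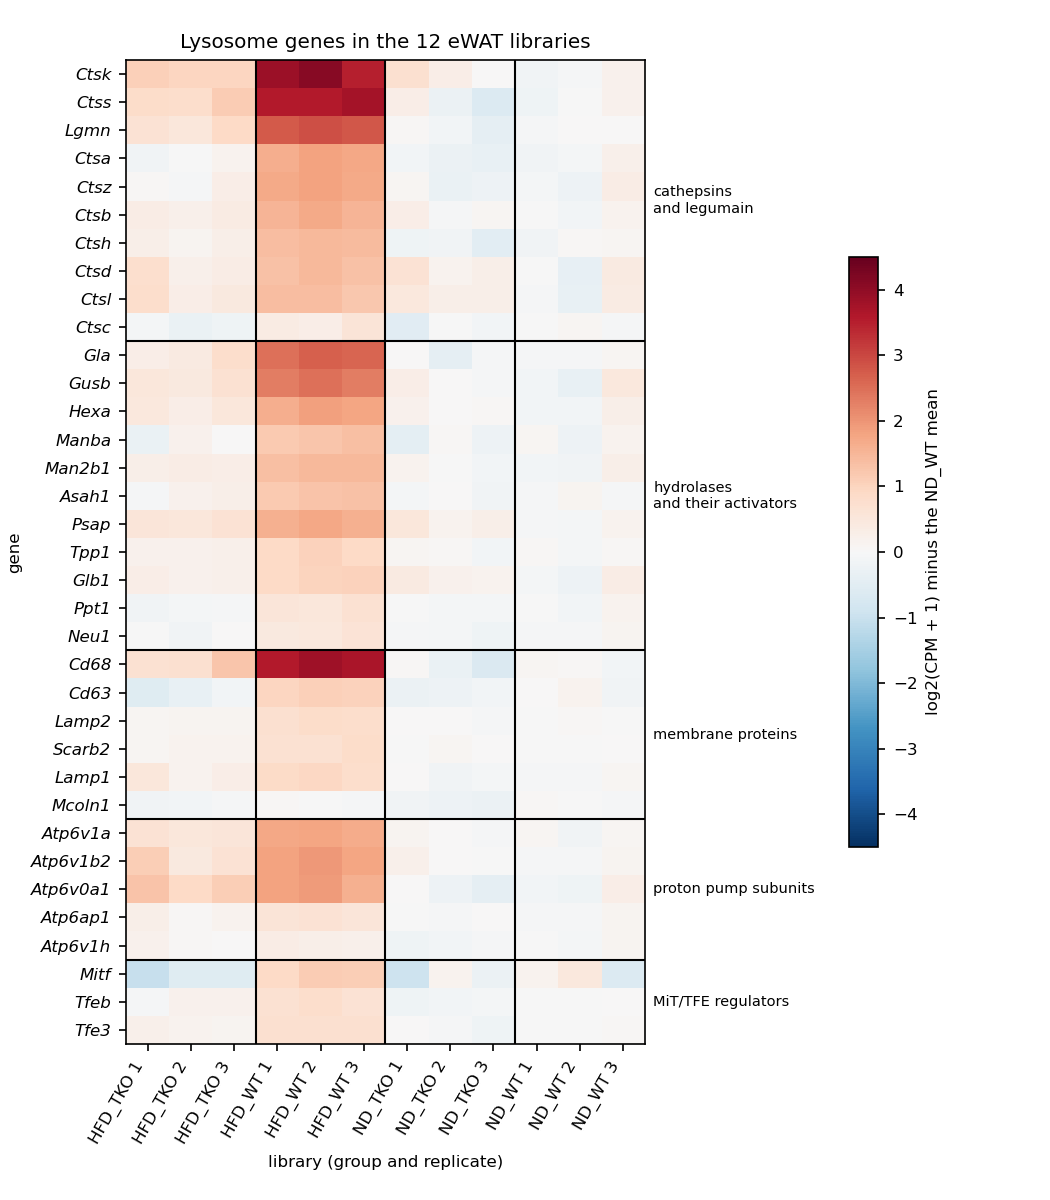
Each row is 1 of the 35 lysosome genes and each column 1 of the 12 libraries, and the colour gives log2(CPM + 1) minus the mean of the 3 ND_WT libraries. The HFD_WT columns stand out in red for most genes, up to the dark red of Ctsk, Ctss and Cd68, while the HFD_TKO columns are pale like the ND columns for most genes.

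**Figure D2:**
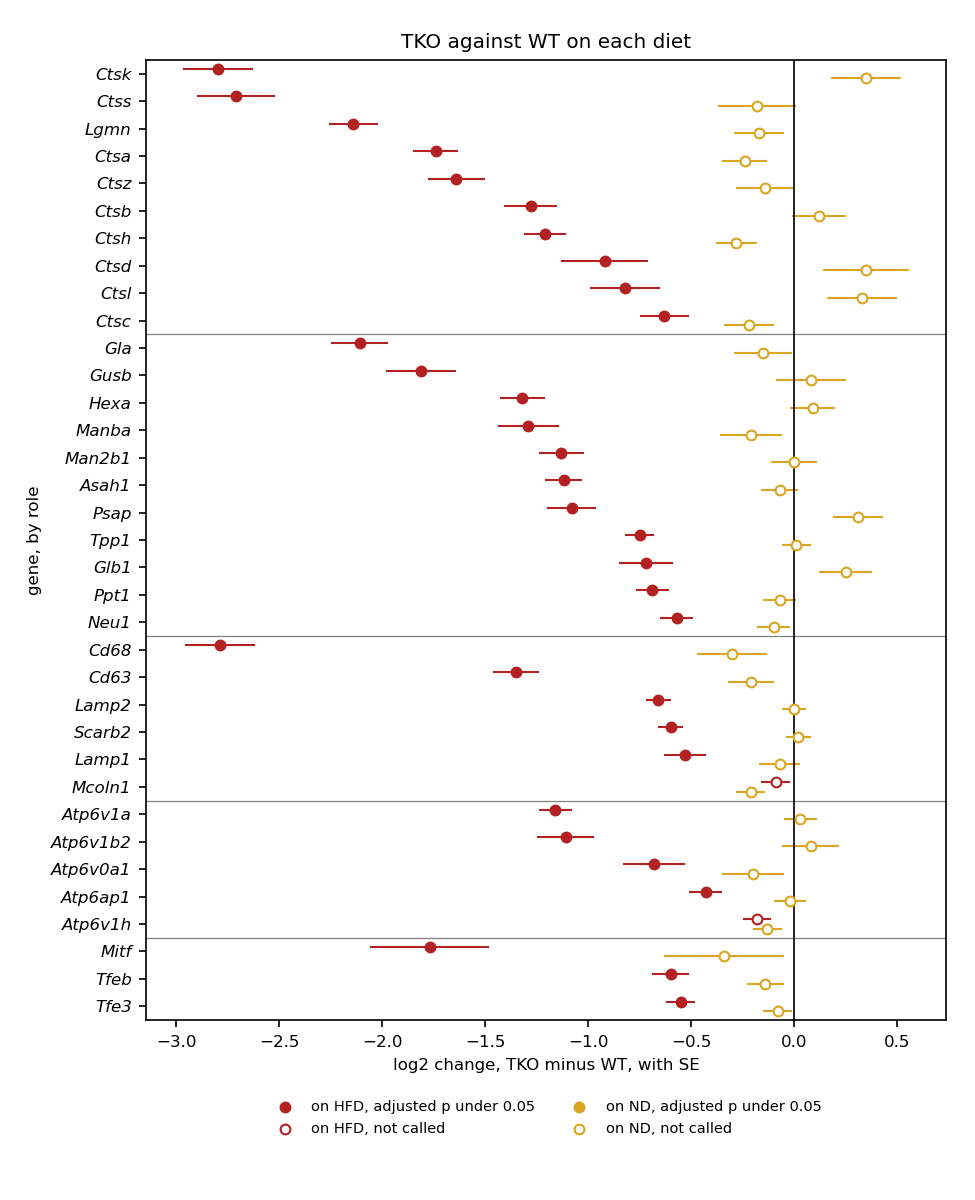
Points give the log2 change of TKO against WT on HFD (red) and on ND (yellow) for each of the 35 genes, with bars for the SE, and filled points were called at an adjusted p of 0.05. On HFD 33 points are filled and lie left of 0, and on ND no point is filled.

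All 10 cathepsin and legumain genes fell in TKO on HFD, with a median log2 change of -1.46. Ctsk encodes cathepsin K, a collagen-degrading protease best known from osteoclasts (chr3:95499210-95509387 of mm10). Ctsk stood at 47.8, 44.3 and 44.0 CPM in the HFD_TKO libraries and 331, 392 and 257 CPM in HFD_WT, and at 36.7, 27.3 and 22.5 CPM in ND_TKO and 19.7, 21.4 and 25.1 CPM in ND_WT. The HFD_TKO libraries lay close together and far below all HFD_WT libraries (log2 change -2.80, SE 0.17, adjusted p = 3e-07). Ctss lies nearby on the same strand (chr3:95526786-95556405) and encodes cathepsin S, which trims the invariant chain of MHC class II in antigen-presenting cells. Ctss stood at 170, 166 and 208 CPM in the HFD_TKO libraries and 1139, 1140 and 1282 CPM in HFD_WT, and at 118, 79.3 and 61.9 CPM in ND_TKO and 82.8, 94.3 and 109 CPM in ND_WT. Every HFD_WT library stood at or above 1139 CPM and no other library above 208 CPM (-2.71, SE 0.19, adjusted p = 5.8e-07). Legumain, encoded by Lgmn, cuts after asparagine and processes other lysosomal proteases. Lgmn stood at 167, 152 and 201 CPM in the HFD_TKO libraries and 722, 810 and 754 CPM in HFD_WT, and at 111, 97.4 and 80.0 CPM in ND_TKO and 103, 108 and 109 CPM in ND_WT. Its log2 change was -2.14 (SE 0.12, adjusted p = 1.6e-07), and the HFD_TKO libraries did not overlap with either neighbouring group, HFD_WT above and ND_TKO below. Ctsa encodes the protective protein that stabilises beta-galactosidase and neuraminidase. Ctsa stood at 204, 223 and 255 CPM in the HFD_TKO libraries and 711, 806 and 769 CPM in HFD_WT, and at 211, 187 and 178 CPM in ND_TKO and 205, 215 and 266 CPM in ND_WT. Here the HFD_TKO values overlapped with those of ND mice of both genotypes, and the log2 change against HFD_WT was -1.74 (SE 0.11, adjusted p = 3.8e-07). Exons of Ctsa share 495 bases with Pltp on the other strand in the annotation, and the sources used here do not say whether reads were counted by strand.

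Cathepsins B and D, the proteases with the highest level per exon length in this group, fell by less. Ctsb averaged 2436 ± 127 CPM in HFD_TKO and 5930 ± 430 CPM in HFD_WT (SD, n = 3 each, log2 change -1.28). Ctsd, the aspartic protease of this group, averaged 2509 ± 498 CPM in HFD_TKO and 4703 ± 273 CPM in HFD_WT (-0.92). HFD_TKO replicate 1 was the highest of its group for Ctsd, at 3080 CPM compared with 2160 and 2288 CPM in the others. The annotation places exons of other genes over parts of Ctsb (Fdft1), Ctsd (Gm49369) and Ctsl (Gm47123 and Gm49230), and over smaller parts of Ctsz, Hexa, Glb1 (Tmppe, on the same strand), Ppt1 (Cap1), Lamp1 and Atp6v1h, so reads there could belong to either gene. The other members of the group were Ctsz (-1.64), Ctsh (-1.21), Ctsl (-0.82) and Ctsc (-0.63). Ctsc, the dipeptidyl peptidase that activates serine proteases of leukocyte granules, thus had the smallest fall among them, with 137 ± 9.32 CPM in HFD_TKO and 212 ± 20.9 CPM in HFD_WT.

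All 11 hydrolases and activators also fell in TKO on HFD, with a median log2 change of -1.12. Gla encodes alpha-galactosidase A, which removes galactose from globotriaosylceramide. Gla stood at 11.5, 12.3 and 16.3 CPM in the HFD_TKO libraries and 55.6, 64.1 and 61.2 CPM in HFD_WT, and at 9.09, 6.63 and 8.71 CPM in ND_TKO and 8.68, 8.71 and 9.81 CPM in ND_WT. The HFD_TKO and HFD_WT libraries stood well apart (-2.11, SE 0.14, adjusted p = 4.2e-07). Gusb encodes beta-glucuronidase, an enzyme of glycosaminoglycan breakdown. Gusb stood at 115, 109 and 131 CPM in the HFD_TKO libraries and 406, 451 and 398 CPM in HFD_WT, and at 98.4, 81.4 and 77.3 CPM in ND_TKO and 73.0, 64.4 and 111 CPM in ND_WT. All HFD_WT libraries stood at or above 398 CPM and no other library above 131 CPM (-1.81, SE 0.17, adjusted p = 4.1e-06). Hexa encodes the alpha subunit of beta-hexosaminidase. Hexa stood at 215, 193 and 223 CPM in the HFD_TKO libraries and 487, 557 and 538 CPM in HFD_WT, and at 176, 158 and 160 CPM in ND_TKO and 142, 142 and 184 CPM in ND_WT. The HFD_TKO values stood a little above all ND values and far below all HFD_WT values (-1.32, SE 0.11, adjusted p = 1.4e-06). Manba encodes beta-mannosidase, which acts last in the breakdown of N-linked glycans. Manba stood at 19.3, 27.7 and 24.7 CPM in the HFD_TKO libraries and 56.6, 58.5 and 63.1 CPM in HFD_WT, and at 17.5, 25.2 and 20.3 CPM in ND_TKO and 25.5, 20.4 and 27.2 CPM in ND_WT. The HFD_TKO libraries overlapped with the ND libraries and lay below all HFD_WT libraries (-1.29, SE 0.15, adjusted p = 3.1e-05).

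The other 7 genes of this group also fell, with log2 changes between -1.13 and -0.57. Psap, the precursor of the saposins that present sphingolipids to their hydrolases, averaged 2693 ± 146 CPM in HFD_TKO and 5685 ± 288 CPM in HFD_WT (-1.08). Man2b1 (alpha-mannosidase, -1.13) and Asah1 (acid ceramidase, -1.12) changed by similar amounts. Tpp1 (tripeptidyl peptidase, -0.75), Glb1 (beta-galactosidase, -0.72), Ppt1 (palmitoyl-protein thioesterase, -0.69) and Neu1 (neuraminidase, -0.57) fell by less. For Neu1 the levels were 38.5 ± 2.22 CPM in HFD_TKO and 57.5 ± 3.99 CPM in HFD_WT (SD, n = 3 each).

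Of the 6 membrane proteins, 5 fell in TKO on HFD, with a median log2 change over the 6 of -0.63. Cd68 encodes macrosialin, a heavily glycosylated late endosomal protein used as a macrophage marker (chr11:69664213-69666170). Cd68 stood at 66.4, 67.6 and 96.7 CPM in the HFD_TKO libraries and 492, 580 and 523 CPM in HFD_WT, and at 42.3, 32.6 and 25.2 CPM in ND_TKO and 43.0, 41.6 and 37.2 CPM in ND_WT. It fell by about as much as Ctsk (-2.79, SE 0.17, adjusted p = 3.1e-07), and HFD_TKO replicate 3 was the highest of its group. Cd63 encodes a tetraspanin of late endosomes and exosomes. Cd63 stood at 127, 148 and 171 CPM in the HFD_TKO libraries and 365, 390 and 379 CPM in HFD_WT, and at 153, 159 and 169 CPM in ND_TKO and 185, 206 and 166 CPM in ND_WT. Only HFD_WT libraries stood above 206 CPM (-1.35, SE 0.11, adjusted p = 1.2e-06). Lamp2, a main structural glycoprotein of the lysosomal membrane, varied little within groups. Lamp2 stood at 312, 321 and 317 CPM in the HFD_TKO libraries and 481, 516 and 504 CPM in HFD_WT, and at 298, 297 and 283 CPM in ND_TKO and 286, 301 and 289 CPM in ND_WT. The difference was therefore well outside the spread although small (-0.66, SE 0.06, adjusted p = 3.6e-06). Scarb2 encodes the receptor that carries glucocerebrosidase to lysosomes. Scarb2 stood at 202, 210 and 212 CPM in the HFD_TKO libraries and 308, 304 and 339 CPM in HFD_WT, and at 186, 203 and 191 CPM in ND_TKO and 187, 188 and 194 CPM in ND_WT. It fell by a similar amount (-0.60, SE 0.06, adjusted p = 1.4e-05). Lamp1 fell by less (-0.53), with 933 ± 116 CPM in HFD_TKO and 1345 ± 51.9 CPM in HFD_WT. Mcoln1, the lysosomal cation channel whose calcium release activates TFEB, averaged 35.7 ± 1.40 CPM in HFD_TKO and 38.2 ± 1.29 CPM in HFD_WT (-0.09, SE 0.07, adjusted p = 0.27, and 0.02 with TMM scaling).

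Of the 5 proton pump subunits, 4 fell in TKO on HFD, with a median over the 5 of -0.68. Atp6v1a and Atp6v1b2 encode the subunits that form the ATP-splitting head of the pump. Atp6v1a stood at 169, 152 and 156 CPM in the HFD_TKO libraries and 355, 369 and 342 CPM in HFD_WT, and at 116, 109 and 103 CPM in ND_TKO and 112, 94.7 and 114 CPM in ND_WT. Atp6v1b2 stood at 253, 162 and 188 CPM in the HFD_TKO libraries and 421, 459 and 407 CPM in HFD_WT, and at 138, 119 and 118 CPM in ND_TKO and 113, 113 and 129 CPM in ND_WT. For both genes the HFD_TKO libraries lay between the HFD_WT libraries and the ND libraries without overlap. The log2 change against HFD_WT was -1.16 for Atp6v1a (SE 0.08, adjusted p = 6.5e-07) and -1.11 for Atp6v1b2 (SE 0.14, adjusted p = 3.9e-05). Atp6v0a1 encodes an isoform of the large membrane subunit. Atp6v0a1 stood at 278, 213 and 241 CPM in the HFD_TKO libraries and 396, 430 and 347 CPM in HFD_WT, and at 115, 95.1 and 84.8 CPM in ND_TKO and 104, 98.9 and 139 CPM in ND_WT. In HFD_TKO it stood below HFD_WT (-0.68, SE 0.15, adjusted p = 0.0029) but above every ND library. Atp6ap1 encodes an accessory protein needed for pump assembly. Atp6ap1 stood at 219, 186 and 199 CPM in the HFD_TKO libraries and 270, 282 and 263 CPM in HFD_WT, and at 179, 173 and 181 CPM in ND_TKO and 172, 173 and 197 CPM in ND_WT. Its fall was small (-0.43, SE 0.08, adjusted p = 0.00065). Atp6v1h, a regulatory subunit, averaged 106 ± 5.74 CPM in HFD_TKO and 121 ± 5.06 CPM in HFD_WT and was not called (-0.18, adjusted p = 0.061). It was called without HFD_TKO replicate 1 (-0.23, adjusted p = 0.037) and without ND_WT replicate 3 (-0.18, adjusted p = 0.036), and its adjusted p ranged from 0.015 to 0.73 over all alternatives.

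The 3 MiT/TFE factors fell together in TKO on HFD. Mitf, the family member known from melanocytes, osteoclasts and macrophages (chr6:97807002-98021360), fell most. Mitf stood at 11.4, 16.6 and 16.6 CPM in the HFD_TKO libraries and 46.7, 56.2 and 54.8 CPM in HFD_WT, and at 12.5, 27.8 and 20.5 CPM in ND_TKO and 27.4, 34.7 and 15.7 CPM in ND_WT. HFD_TKO and HFD_WT libraries stood apart, while the ND libraries of either genotype varied by more than 2-fold among themselves (-1.77, SE 0.29, adjusted p = 0.0004). Tfeb and Tfe3 encode the factors best known for driving lysosomal genes. Tfeb stood at 12.6, 15.2 and 15.2 CPM in the HFD_TKO libraries and 21.9, 23.4 and 21.5 CPM in HFD_WT, and at 11.6, 12 and 12.3 CPM in ND_TKO and 13.2, 13.2 and 13.3 CPM in ND_WT. Tfe3 stood at 48.3, 45.7 and 44.7 CPM in the HFD_TKO libraries and 68.5, 68.0 and 68.2 CPM in HFD_WT, and at 41.5, 39.3 and 35.4 CPM in ND_TKO and 39.9, 39.9 and 42.6 CPM in ND_WT. Within each group these values differed little, and the log2 change was -0.60 for Tfeb (SE 0.09, adjusted p = 0.00015) and -0.55 for Tfe3 (SE 0.07, adjusted p = 5.4e-05). These are transcript levels, and the activity of these factors, which depends on their move into the nucleus, was not measured.

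**Figure D3:**
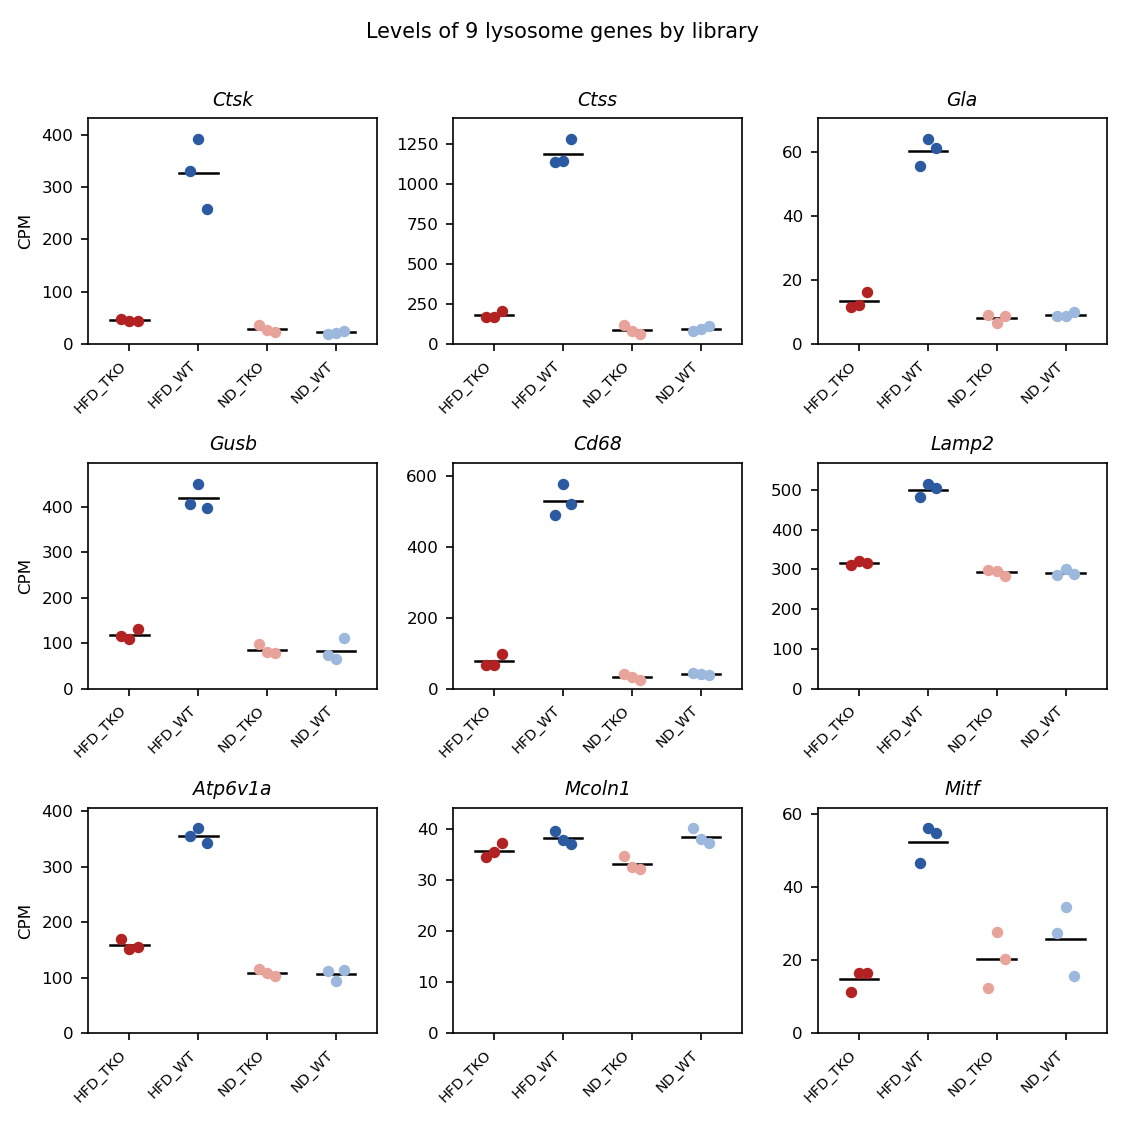
Each panel shows 1 gene, with the CPM of each library as a point, the group mean as a line, and the groups HFD_TKO, HFD_WT, ND_TKO and ND_WT from left to right. For 8 of the 9 genes the 3 HFD_WT points lie above all others, and for Mcoln1 the groups lie between 32.2 and 40.1 CPM.

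On ND, none of the 35 lysosome genes was called between TKO and WT mice by limma. The median log2 change was -0.07, with a range from -0.34 (Mitf) to 0.35 (Ctsk, equalled by Ctsd), compared with a median of -0.06 over all tested genes. In this comparison 3.54% of all tested genes were called lower and 2.16% higher, and with TMM scaling the 337 higher and 552 lower genes became 525 and 396. At an unadjusted p under 0.05, limma gave 1 of the 35 higher and 2 lower, edgeR 2 higher and 1 lower, and DESeq2 3 higher and 1 lower. Of all 15597 tested genes, limma gave 3530 at that unadjusted p in either direction, edgeR 3334 and DESeq2 3240. With edgeR on recovered reads no gene of the 35 was called, and with DESeq2 1 was, Psap (0.37, adjusted p = 0.026). Psap averaged 2255 ± 297 CPM in ND_TKO and 1814 ± 165 CPM in ND_WT (SD, n = 3 each), without overlap, as did 7.96% of all tested genes in this direction. Mcoln1 and Tfeb were lower in every ND_TKO library than in every ND_WT library, with log2 changes of -0.21 and -0.14, and neither passed the test (adjusted p = 0.093 and 0.39). Such a separation downward held for 15.8% of all tested genes. The count rested in part on ND_WT replicate 3, which was the highest of its group for 27 of the 35 genes. Without it Ctsl (0.52, adjusted p = 0.043) and Glb1 (0.42, adjusted p = 0.011) were called higher, and without both libraries that lay apart Psap, Ctsd, Ctsl and Glb1 were called higher and Cd63 and Mcoln1 lower. The whole table moved too, with 5.61% of genes higher and 6.27% lower without ND_WT replicate 3, and 7.73% and 10.1% without both, so the 4 higher and 2 lower genes are near the share over all genes. Without ND_WT replicate 1, 0.827% were higher and 1.42% lower.

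In WT mice, HFD raised nearly all of the lysosome genes. In HFD_WT against ND_WT, 34 of the 35 rose by limma and none fell by limma, edgeR or DESeq2 (at an unadjusted p under 0.05 the lower counts were 0, 1 and 0), with a median log2 change of 1.33, compared with 0.13 over all tested genes. Over all tested genes 37.8% were called higher and 20.3% lower, and 22 of the 35 rose at least 2-fold, compared with 12.6% of all tested genes. Limma gave 9766 of the 15597 tested genes at that unadjusted p, in either direction. Ctsk rose most (3.81, SE 0.17, adjusted p = 1.8e-08), followed by Cd68 (3.68), Ctss (3.63), Lgmn (2.82) and Gla (2.61). The proton pump genes Atp6v1b2 (1.85), Atp6v0a1 (1.78) and Atp6v1a (1.73) rose more than 3-fold, and Tfeb (0.71), Tfe3 (0.73) and Mitf (1.06) rose by less. Mcoln1 averaged 38.2 ± 1.29 CPM in HFD_WT and 38.4 ± 1.51 CPM in ND_WT and was not called (-0.01, adjusted p = 0.92). With TMM scaling 32 of the 35 were called higher, with a median of 1.18 beside 0.01 over all genes, and the calls of Ctsc (0.28, adjusted p = 0.06) and Atp6v1h (0.13, adjusted p = 0.24) were lost. Of the whole table, 5892 genes were higher and 3173 lower with CPM, and 4664 and 4248 with TMM scaling. The HFD_WT libraries serve in this comparison and in that of TKO against WT on HFD, so both rest on the same values of that group.

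In TKO mice the same diet raised 12 of the 35 genes, and none fell by limma, edgeR or DESeq2. The median log2 change was 0.24, compared with 0.07 over all tested genes, and 16.2% of all tested genes were called higher and 5.9% lower. Atp6v0a1 rose most (1.31, SE 0.15, adjusted p = 0.00095), followed by Cd68 (1.19, SE 0.17, adjusted p = 0.0017) and Ctss (1.11, SE 0.19, adjusted p = 0.0031). The other called genes were Lgmn (0.85), Atp6v1b2 (0.66), Ctsk (0.66), Gla (0.65), Atp6v1a (0.54), Ctsh (0.50), Lamp1 (0.40), Hexa (0.35) and Tfe3 (0.25). All HFD_TKO values exceeded all ND_TKO values for 19 of the 35, compared with 27.7% of all tested genes. At an unadjusted p under 0.05, limma gave 19 of the 35 higher and 0 lower, edgeR 12 and 0, and DESeq2 13 and 0. Of all 15597 tested genes, limma gave 5598 at that unadjusted p in either direction, edgeR 5268 and DESeq2 5162. Ctsb (0.18), Ctsd (0.09), Psap (0.26) and Cd63 (-0.11) were not called, and each rose in WT mice.

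With TMM scaling 8 were called, with a median of 0.14 beside -0.01 over all genes, and edgeR also called 8. Leaving out 1 library gave between 8 (without ND_TKO replicate 3) and 15 (without ND_WT replicate 3), and 17 were called without both libraries that lay apart. Over all tested genes, the shares called higher in these 3 fits were 8.05%, 20% and 18.1%. The call of Ctsk was lost in 3 fits that left out a library, namely HFD_TKO replicate 1 (adjusted p = 0.058), replicate 2 of ND_TKO (0.055) and its replicate 3 (0.085). That of Hexa was lost in 4, namely without replicate 1 (0.088) or replicate 3 (0.12) of HFD_TKO and without replicate 2 (0.095) or replicate 3 (0.11) of ND_TKO. That of Lamp1 was lost without ND_TKO replicate 3 (0.053), and that of Tfe3 without replicate 1 (0.074) or replicate 2 (0.05) of HFD_TKO or replicate 3 (0.1) of ND_TKO. Of the whole table, 2525 genes were higher and 921 lower with CPM, and 1397 and 1474 with TMM scaling.

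**Figure D4:**
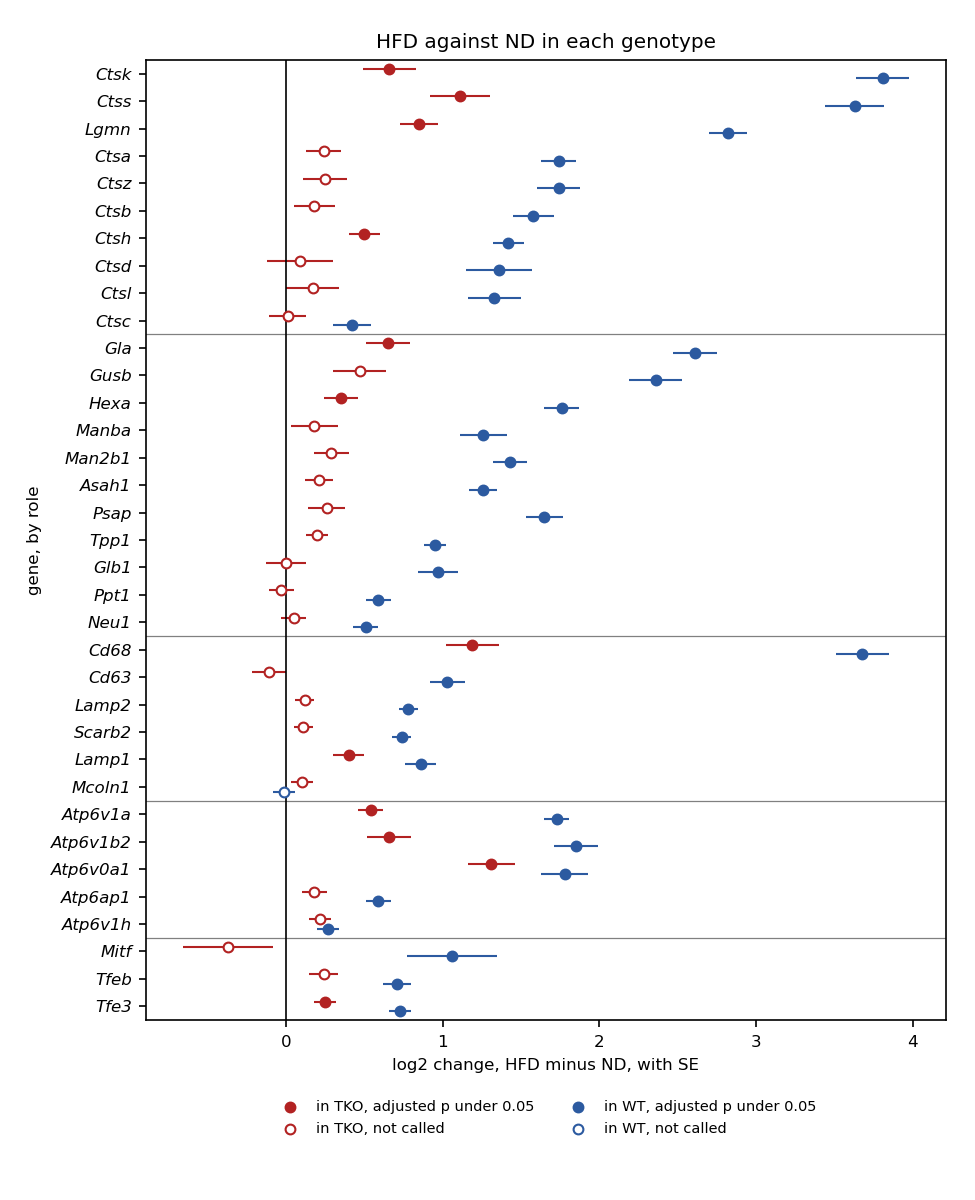
Points give the log2 change of HFD against ND in TKO (red) and in WT (blue) for each of the 35 genes, with bars for the SE, and filled points were called at an adjusted p of 0.05. The blue points lie right of the red ones for 34 genes, and 12 red and 34 blue points are filled.

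The genotype by diet interaction tests whether the TKO change differed between diets. It was negative and called for 31 of the 35 genes and positive for none by limma, edgeR or DESeq2, also at an unadjusted p under 0.05, with a median of -1.13 beside -0.06 over all tested genes. Over all tested genes 18.8% were called negative and 9.94% positive, and limma gave 6170 of 15597 at that unadjusted p, in either direction. The largest differences were those of Ctsk (-3.15, SE 0.25, adjusted p = 1.1e-05), Ctss (-2.53, SE 0.27, adjusted p = 5.2e-05) and Cd68 (-2.49, SE 0.25, adjusted p = 3.5e-05). The 4 genes without a call were Ctsc (-0.41, adjusted p = 0.087), Atp6v0a1 (-0.48, adjusted p = 0.12), Atp6v1h (-0.06, adjusted p = 0.74) and Mcoln1 (0.11, adjusted p = 0.42). Atp6v0a1 was thus the gene of the 35 with the largest rise on HFD in TKO, and for it a difference in the diet response between genotypes was not called. Its call was made without ND_WT replicate 3 (-0.63, adjusted p = 0.025) and without both libraries that lay apart (-0.72, adjusted p = 0.0093). That of Ctsc was made without ND_TKO replicate 1 (-0.55, adjusted p = 0.01). The call of Mitf was lost without ND_TKO replicate 2 (-1.18, adjusted p = 0.055) and without both libraries that lay apart (-0.95, adjusted p = 0.056). With TMM scaling 29 were called, and those of Lamp1 and Atp6ap1 were lost. The call of Lamp1 was lost in 7 of 12 fits that left out 1 library, with adjusted p between 0.0052 and 0.064 over the 12.

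Per length, the 35 genes spanned a wide range. In CPM per kilobase of merged exons, Psap stood at 981 in HFD_TKO and 2070 in HFD_WT, Ctsd at 1070 in HFD_TKO and 2000 in HFD_WT, and Ctsb at 403 in HFD_TKO and 980 in HFD_WT. Ctss was the next in HFD_WT, at 134 in HFD_TKO and 874 in HFD_WT. The lowest in HFD_TKO were Mitf (2.40 in HFD_TKO and 8.49 in HFD_WT) and Tfeb (2.53 in HFD_TKO and 3.93 in HFD_WT), and the lowest in HFD_WT were Tfeb and Mcoln1 (4.72 in HFD_TKO and 5.05 in HFD_WT). These are group means, and merged exons of several transcripts make long genes appear lower per kilobase.

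Further lysosomal genes that are not among the 35 were followed in 9 lists of 152 symbols, of which 142 were tested. In TKO on HFD, 11 rose and 79 fell, with a median log2 change of -0.31, a smaller shift than that of the 35. For these lists the shares over all tested genes are again 31.6% lower and 15.2% higher. Among further hydrolases 25 of 35 tested genes fell, among them Lipa, the acid lipase that frees fatty acids and cholesterol from lipoprotein lipids (149 ± 11.3 CPM in HFD_TKO and 714 ± 34.7 CPM in HFD_WT, -2.25). The single hydrolase that rose was Smpd1, acid sphingomyelinase (130 ± 13.9 CPM in HFD_TKO and 86.3 ± 2.95 CPM in HFD_WT, 0.58, adjusted p = 0.00053). Of further membrane proteins 14 of 25 fell and 4 rose, with the transporters Slc15a3 (-2.81) and Slc11a1 (-2.14) lowest and Abcb9 (0.88) and Mfsd8 (0.55) highest. Of further cathepsins 3 of 5 fell, among them Napsa (-1.23) and Ctsw (-1.06), and 2 were not called. The summed level of that list nonetheless overlapped, at 142 to 156 CPM in HFD_TKO and 151 to 164 CPM in HFD_WT. Of cystatins and stefins, which inhibit cathepsins, 3 of 4 fell, among them Cstb (-1.51) and the low Cst7 (-1.25).

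Genes around the lysosome were followed in 4 lists. Of genes that sort enzymes to lysosomes 7 of 12 fell, among them the mannose 6-phosphate receptor Igf2r (-1.21) and Gga3 (-0.81), while the sorting receptor Sort1 rose (530 ± 71.3 CPM in HFD_TKO and 302 ± 5.41 CPM in HFD_WT, 0.80, adjusted p = 8.4e-05). Of 15 genes of nutrient sensing on the lysosome 7 fell, with Fnip2 (-1.89) and Rragd (-1.87) lowest. Of 22 autophagy genes 8 fell and 3 rose, with a median of 0.00, shares near those over all tested genes. The lowest of these were Uvrag (-0.77) and Vps18 (-0.63) and the highest Map1lc3a (0.53) and Atg9a (0.38). In the list of the MiT/TFE family and its control 4 of 7 fell, and Ppargc1a rose (0.76, adjusted p = 0.038). The lowest were the low Tfec (-1.05) and Gpnmb (-3.75), a gene also counted below among those of lipid-associated macrophages. Gpnmb is listed with the family but is not one of its factors. The call of Ppargc1a was lost without HFD_TKO replicate 2 (adjusted p = 0.14) or its replicate 3 (0.072), and without replicate 1 (0.12), replicate 2 (0.075) or replicate 3 (0.052) of HFD_WT.

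Isoforms of proton pump subunits d and a differed in their change. Of 17 further subunits 8 fell and 1 rose in TKO on HFD, with a median of -0.12. Atp6v0d2, an isoform of subunit d known from osteoclasts and macrophages, fell more than any of the 35 genes. Atp6v0d2 stood at 23.4, 28.9 and 40.2 CPM in the HFD_TKO libraries and 330, 374 and 331 CPM in HFD_WT, and at 15.6, 5.98 and 5.25 CPM in ND_TKO and 10.9, 7.93 and 5.34 CPM in ND_WT. The HFD_TKO libraries were nearer to the ND libraries than to HFD_WT, with a log2 change of -3.47 (SE 0.34, adjusted p = 6.1e-06), whereas the widely expressed isoform Atp6v0d1 averaged 152 ± 10.6 CPM in HFD_TKO and 152 ± 4.99 CPM in HFD_WT (0.00, SE 0.09, adjusted p = 0.98). For subunit a, Tcirg1 fell (39.1 ± 6.16 CPM in HFD_TKO and 123 ± 5.33 CPM in HFD_WT, -1.64, adjusted p = 2.3e-06), as Atp6v0a1 did, while Atp6v0a2 averaged 74.9 ± 2.93 CPM in HFD_TKO and 75.8 ± 4.13 CPM in HFD_WT (-0.02, adjusted p = 0.9). Atp6v0e2, an isoform of the small subunit e, rose. Atp6v0e2 stood at 47.0, 62.7 and 60.7 CPM in the HFD_TKO libraries and 19.3, 19.6 and 19.1 CPM in HFD_WT, and at 63.1, 63.3 and 71.6 CPM in ND_TKO and 71.3, 53.1 and 88.4 CPM in ND_WT. Only the HFD_WT libraries were low (1.50, SE 0.16, adjusted p = 1.2e-05). Atp6v0d1 and Atp6v0a2 were chosen after their values were seen, to stand beside their isoforms.

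**Figure D5:**
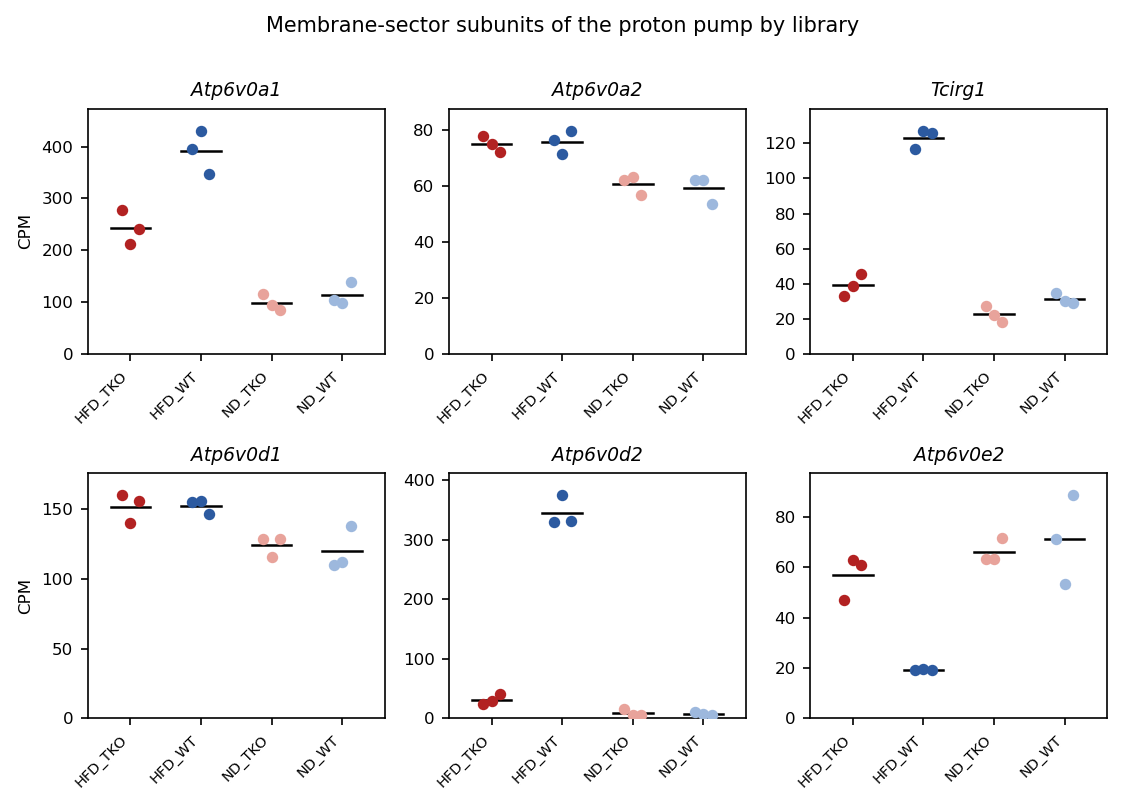
Each panel shows 1 membrane-sector subunit of the proton pump, with the CPM of each library as a point and the group mean as a line. Atp6v0a1, Tcirg1 and Atp6v0d2 are highest in HFD_WT, Atp6v0e2 is lowest there, and Atp6v0a2 and Atp6v0d1 overlap between HFD_TKO and HFD_WT.

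On ND, 1 of the 142 further genes was higher and 7 were lower in TKO, beside 2.16% and 3.54% of all tested genes. The gene that rose was Mcoln2, a paralog of Mcoln1, with 5.43 ± 0.870 CPM in ND_TKO and 1.58 ± 0.199 CPM in ND_WT (1.31, SE 0.16, adjusted p = 0.00093). On HFD it averaged 10.7 ± 2.37 CPM in HFD_TKO and 11.7 ± 1.5 CPM in HFD_WT (-0.13, adjusted p = 0.52). Of the 7 lower genes Acp5, tartrate-resistant acid phosphatase, stood at 273 ± 37.4 CPM in ND_TKO and 452 ± 60.7 CPM in ND_WT (-0.72, SE 0.12, adjusted p = 0.0041). Both genes were chosen after their values were seen.

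Markers of macrophages were lower in TKO on HFD, as the lysosome genes were. Of 13 macrophage markers 12 fell in TKO on HFD, with a median log2 change of -2.12. In this comparison 31.6% of all tested genes were called lower and 15.2% higher. The summed level of the 13 was 1497 to 1730 CPM in HFD_TKO, 6789 to 7404 CPM in HFD_WT, 858 to 1205 CPM in ND_TKO and 1050 to 1507 CPM in ND_WT. On ND their median log2 change was -0.33, while the median of the lysosome genes was -0.07. There 1 of the 13 was called lower, compared with 3.54% of all tested genes. Adgre1, which encodes the macrophage antigen known as F4/80, averaged 68.3 ± 4.72 CPM in HFD_TKO and 635 ± 83.1 CPM in HFD_WT (-3.19, adjusted p = 1.7e-07), and the growth factor receptor gene Csf1r 170 ± 6.70 CPM in HFD_TKO and 537 ± 42.9 CPM in HFD_WT (-1.65, adjusted p = 1.8e-06). The exception was Mertk, a receptor for dying cells, at 54.7 ± 12.8 CPM in HFD_TKO and 54.2 ± 1.48 CPM in HFD_WT (-0.01, adjusted p = 0.96), named after its value was seen. Of 10 genes of lipid-associated macrophages 7 fell, among them Trem2 (17.8 ± 3.61 CPM in HFD_TKO and 200 ± 28.2 CPM in HFD_WT, -3.43) and Gpnmb, which is also in the MiT/TFE list. The other 3 were not called, among them Acp5 (0.14, adjusted p = 0.35), which is also in the list of further hydrolases. The summed level of these 10 was 7204 to 7789 CPM in HFD_TKO, 11199 to 12603 CPM in HFD_WT, 7429 to 7846 CPM in ND_TKO and 6063 to 6309 CPM in ND_WT. No marker of either list was at 0 in any library. Their part in the fall of the lysosome genes was not tested.

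Markers of some other cell types differed as well, beside 31.6% of all tested genes called lower and 15.2% higher in TKO on HFD. Of 12 adipocyte markers 10 rose in TKO on HFD, with a summed level of 28656 to 31010 CPM in HFD_TKO, 16546 to 17945 CPM in HFD_WT, 38624 to 44252 CPM in ND_TKO and 38957 to 50544 CPM in ND_WT. Adipoq averaged 3948 ± 828 CPM in HFD_TKO and 1429 ± 76.0 CPM in HFD_WT (1.44, adjusted p = 1.7e-05). Of the T and NK cell markers 5 of 5 fell, of B cell markers 3 of 3 and of mast cell markers 3 of 4, and mast cell markers summed to 24.9 to 32.3 CPM in HFD_TKO and 160 to 204 CPM in HFD_WT. T and NK cell markers summed to 3.30 to 4.46 CPM in HFD_TKO and 10.2 to 31.5 CPM in HFD_WT, and B cell markers to 3.72 to 5.56 CPM in HFD_TKO and 10.1 to 79.9 CPM in HFD_WT. HFD_WT replicate 2 was the lowest of its group for both, and for B cells it lay within the range of ND_WT (4.10 to 19.7 CPM). Of 6 stroma markers 1 rose and 2 fell, shares near those over all tested genes. None of the 5 endothelial or 4 mesothelial markers was called, with a median log2 change of 0.02 for the endothelial and 0.23 for the mesothelial ones. The part of these cells in the lysosome genes was not tested either.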

How the data were processed

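The authors deposited 1 table of CPM values (reads scaled to a common library total) for 25232 genes in 12 bulk RNA-seq libraries of eWAT, 4 groups of 3 biological replicates per the labels. The submitters' processing notes name the build mm10 and, among the tools, DESeq2, featureCounts (2.0.0) and STAR (2.7.3a), without their roles. The sources used here do not say whether counting used strand. In each library 100% of the deposited CPM values came out as whole reads (tolerance 0.05 read, after an offset of 0.01 read), and 3 reads correspond to 0.117 to 0.143 CPM. The 3 rows without a symbol held 0.0313% to 0.0679% of CPM and were left out. The members and the other gene lists were chosen with earlier results of these data known.

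Genes with at least 0.5 CPM in at least 3 libraries (15597) were tested with limma 3.58.1 (mean-variance trend, R 4.3.3) on log2(CPM + 1), all 12 libraries in 1 fit of group means, with Benjamini-Hochberg adjustment over all tested genes. The pseudocount understates fold changes of low genes. Alternatives were trimmed mean (TMM) factors (0.902 to 1.11), DESeq2 size factors, pseudocounts of 0.5 and 5 CPM, no filter, a filter at 2 CPM, fits of only the 2 groups compared, the replicate number as a block, each library left out, and edgeR 4.0.16 and DESeq2 1.42.0 on recovered reads. TMM scaling moved the median log2 change of all genes to -0.01 for TKO against WT on HFD, from -0.10 with CPM, and to 0.01 for HFD against ND in WT, from 0.13.

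Given in full are the 4 genes of largest absolute change of TKO against WT on HFD in each role (all 3 MiT/TFE factors). From each other list the 2 called genes of largest change in each direction are named, plus Adgre1, Csf1r, Trem2, Gpnmb and Adipoq. A gene that this rule names is not reported here. Exon lengths, strands and exon overlaps come from GENCODE M21, and gene positions and promoter windows from RefSeq. Figures were drawn with matplotlib 3.10.9.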

Additional observations from a re-analysis of the deposited data

Results flagged for a closer look

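For 57 of the genes named in the report limma called a genotype by diet interaction (adjusted p under 0.05, over all tested genes). Of these, 31 were lysosome genes chosen by symbol. Most of the others were named for the size of their called change on HFD. That change is one part of the interaction, so the count of 57 cannot show how common such differences were. Over all tested genes 18.8% were called negative and 9.94% positive. Values are the log2 change of TKO against WT on HFD minus that on ND. Among the cathepsins and legumain it was -3.15 for Ctsk, -2.53 for Ctss, -1.97 for Lgmn, -1.50 for Ctsa, -1.49 for Ctsz, -1.40 for Ctsb, -1.27 for Ctsd, -1.15 for Ctsl and -0.92 for Ctsh. Among the hydrolases and activators it was -1.96 for Gla, -1.90 for Gusb, -1.41 for Hexa, -1.39 for Psap, -1.13 for Man2b1, -1.08 for Manba, -1.05 for Asah1, -0.97 for Glb1, -0.75 for Tpp1, -0.62 for Ppt1 and -0.46 for Neu1. Among the membrane proteins it was -2.49 for Cd68, -1.14 for Cd63, -0.66 for Lamp2, -0.63 for Scarb2 and -0.46 for Lamp1, and among the pump subunits -1.19 for Atp6v1a, -1.19 for Atp6v1b2 and -0.41 for Atp6ap1. For the transcription factors it was -1.43 for Mitf, -0.48 for Tfe3 and -0.47 for Tfeb.

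Among the further lysosome genes, all but 5 of those named here had a negative difference: -3.75 for Gpnmb, -3.51 for Atp6v0d2, -2.69 for Slc15a3, -2.22 for Lipa, -2.05 for Fnip2, -1.85 for Rragd, -1.79 for Slc11a1, -1.55 for Cstb, -1.51 for Cst7, -1.44 for Mcoln2, -1.18 for Tcirg1, -1.09 for Ctsw, -0.89 for Igf2r, -0.75 for Tfec, -0.69 for Uvrag, -0.63 for Vps18 and -0.52 for Gga3. The 5 positive ones were 1.57 for Atp6v0e2, 0.86 for Acp5, 0.84 for Sort1, 0.39 for Mfsd8 and 0.32 for Atg9a. Most of these further genes were named for their change on HFD, so that choice also bears on the signs. Among the cell type markers the difference was -2.81 for Adgre1, -2.91 for Trem2 and -1.31 for Csf1r in macrophage genes and 1.11 for Adipoq. Groups of 3 libraries are too small for a test of single outlying samples.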

How the results depend on the processing

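Over the 35 genes and 5 comparisons, 175 changes were recomputed 3990 times. Of these, 3909 stayed on the same side of the threshold, 51 lost a call and 30 gained one. No change that was called in either fit reversed its sign. A change called in neither fit could change sign and still count among the 3909, as that of Mcoln1 on HFD did with TMM scaling. On HFD the number of genes called lower in TKO was 33 or 34 under every alternative. On ND the number called higher was 1 with DESeq2 and 4 without both ND_WT replicate 3 and HFD_TKO replicate 1, an alternative chosen after seeing the data, which also gave 2 lower, and the cause was not tested. Leaving out 1 library gave 0 to 2 higher and 0 lower on ND, 33 to 34 lower on HFD, 34 higher by diet in WT, 8 to 15 higher by diet in TKO and 30 to 32 with a negative interaction. The alternative with only the 2 groups compared was not run for the interaction, and on ND it gave 94 higher and 186 lower genes over the whole table, compared with 337 and 552. With the replicate block, 33 genes were lower on HFD, and 175 of 175 calls were as without it. Over 18 pairs of same-numbered libraries the correlation of deviations from group means ran from -0.50 to 0.56 (median -0.08, over 0.1 in 5). The labels do not say whether the numbers pair samples, and with 3 libraries per group these values cannot decide it. Depth did not limit these genes, since the lowest value, 6.63 CPM, is far above the 0.143 CPM that 3 reads give.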

Other observations

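The further lysosome genes also moved with diet. In WT mice 85 of the 142 tested were higher and 15 lower on HFD, with a median log2 change of 0.39, and in TKO mice 40 were higher and 6 lower, with a median of 0.12. Over all tested genes 37.8% were higher and 20.3% lower in WT, and 16.2% higher and 5.9% lower in TKO. Atp6v0d2 had the largest rise of these in both genotypes (1.79 in TKO, adjusted p = 0.0043, and 5.30 in WT, adjusted p = 1.2e-07, by limma). Atp6v0e2, the pump subunit that rose in TKO on HFD, fell with diet in WT (-1.79, adjusted p = 1.7e-06), and its change in TKO was -0.22 (adjusted p = 0.34). Sort1 fell with diet in WT (-1.09, adjusted p = 4.7e-06), and its change in TKO was -0.24 (adjusted p = 0.13). Acp5 fell with diet in WT (-1.21, adjusted p = 3.5e-06), the opposite direction to most lysosome genes, and its change in TKO was -0.35 (adjusted p = 0.051). Of the 13 macrophage markers 8 rose with diet in TKO mice, with a median log2 change of 0.71, beside the 12 lysosome genes that rose there, and their part in that rise was not tested. Of the 10 lipid-associated macrophage genes 5 were called higher with diet in TKO mice by limma and 0 lower, with a median log2 change of 1.16. Their summed level, in which abundant genes weigh most, nonetheless overlapped between HFD_TKO (7204 to 7789 CPM) and ND_TKO (7429 to 7846 CPM). The WT libraries on HFD serve in several of these comparisons, so these values do not stand independently of those in the report.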
